A study of Macaca fascicularis with 2 samples.

Results

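TCF21, NR2F1, NR2F2, OSR1, MKX, GATA2 and GATA6 are transcription factors of mesenchymal, vascular and gonadal lineages. They were picked as a named list, with earlier results of these data known, and all 7 were rows of the count table, out of 18446 genes. The counts of members given beside shares of all genes are therefore descriptions. RNA was measured cell by cell after whole ovaries from fetal cynomolgus monkeys (Macaca fascicularis) had been dissociated. Samples came from 1 fetus at E84 (embryonic day 84) and 1 at E116, and no treatment is stated in the labels used here. Both ovaries of a fetus went into 1 library of the droplet-based 10x 3' version 3 assay. This assay counts unique molecular identifiers (UMIs), the tags of single captured RNA molecules. The table joined both libraries into 20967 cells whose barcodes ended in 1 or 2, and neither the table nor the labels tie an ending to a stage. The endings therefore served as unlabelled technical batches. With 1 fetus per stage there were no replicates, no group comparison could be tested, and every interval given is an exact 95% interval that covers counting error only.

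Theca cells are the steroid-producing cells that surround growing follicles, and they arise from the interstitial mesenchyme of the ovary. TCF21 is a basic helix-loop-helix factor of mesenchyme around developing epithelia. NR2F1 and NR2F2 are orphan nuclear receptors of the COUP-TF family, of which NR2F2 also sets the identity of veins. OSR1 is a zinc finger factor of the intermediate mesoderm, which gives rise to kidney and gonad, and MKX, or Mohawk, is a homeobox factor best known from tendon. GATA2 is a zinc finger factor of blood and endothelial cells, and GATA6 acts with GATA4 in the somatic cells of the gonad.

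Cells with 200 to 3000 detected genes were retained, 16292 in all, with a median of 2670 UMIs. They formed 19 clusters, which were named by marker genes as "like" a class, with the 7 factors kept out of the clustering and of the markers. The stroma-like class held 4000 cells, the pericyte-like class 120, the endothelial-like class 342, the granulosa-like class 4122 and the ovarian surface epithelium-like class 757. Germ cells, macrophages and erythroid cells made up the other named classes, and 1908 cells stayed unnamed. Only 8 of the 120 pericyte-like cells had barcodes ending in 1. A level is the sum of a gene's UMIs in a group per 1000000 UMIs of that group (CPM). Levels are compared between cell groups and not between genes. Of the UMIs of a factor in the whole table, the retained cells held between 27.3% (GATA2) and 52.7% (TCF21). Of all UMIs they held 53250481 out of 148824177.

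TCF21, NR2F1, OSR1 and MKX were highest in stroma-like cells, NR2F2 in pericyte-like cells with stroma-like cells close below, GATA2 in endothelial-like cells, and GATA6 in granulosa-like cells at very few UMIs. No factor was highest in surface epithelium-like cells, where 10.4% of genes were, and 11.7% were highest in pericyte-like, 12.1% in endothelial-like and 13.4% in granulosa-like cells. Thus 4 of the 7 factors had their highest level among the 8 named classes in stroma-like cells, where 8.92% of 13369 genes did. With barcodes ending in 1 alone, which left 8 pericyte-like cells, 2 factors did. With barcodes ending in 2 alone, NR2F1 was higher in pericyte-like cells (156 CPM) than in stroma-like cells (134 CPM). NR2F2 was too, at 837 and 819 CPM. The count of 4 was thus found with both endings together and in neither ending alone. The stroma-like cells held 88.7% of the TCF21 UMIs of the retained cells and 80.2% of those of NR2F2, against 42.1% for GATA2 and 33.0% for GATA6, while they held 28.1% of all UMIs of these cells. The class name stood on its markers, collagens, DCN, LUM and OGN among them, which summed to 25287 CPM in stroma-like, 5317.9 in pericyte-like and 2842.7 in granulosa-like cells.

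**Figure D1:**
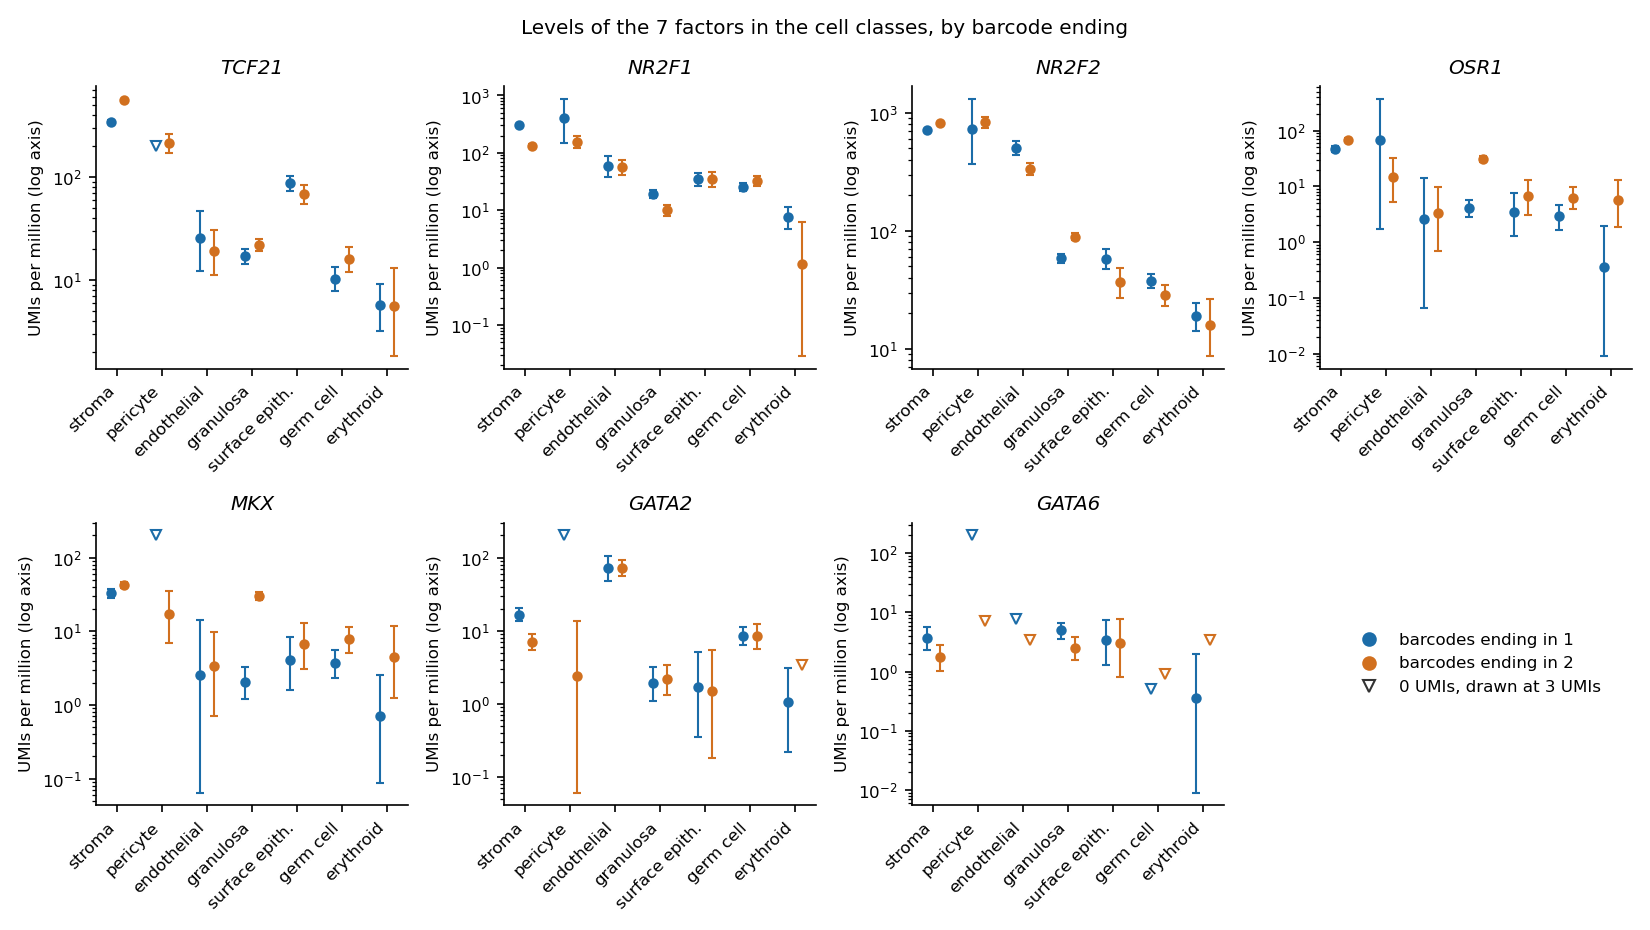
Level of each factor (CPM, log axis) in 7 cell classes, with cells of barcodes ending in 1 in blue and in 2 in orange. Bars are exact 95% Poisson intervals, and open triangles mark groups with 0 UMIs, drawn at the level of 3 UMIs. TCF21 stands at 342 and 557 CPM in stroma-like cells, GATA2 at 71.6 and 72.3 CPM in endothelial-like cells, and OSR1 (4.13 and 31.3 CPM) and MKX (2.06 and 30.0 CPM) differ between the endings in granulosa-like cells.

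TCF21 reached 473 CPM (462 to 484, from 7091 UMIs) in stroma-like cells. It was at 204 CPM (164 to 252) in pericyte-like cells, 78.9 (69.2 to 89.5) in surface epithelium-like cells, 21.1 (13.9 to 30.8) in endothelial-like cells and 19.7 (17.6 to 21.9) in granulosa-like cells. The intervals of the first 3 classes were apart from each other, and those of the endothelial-like and granulosa-like cells overlapped. A TCF21 UMI was seen in 64.2% of stroma-like cells at a median of 3313.5 UMIs per cell. In erythroid-like cells, which served as a gauge of free RNA, it was seen in 2.86% of cells at a median of 4063 UMIs. In stroma-like cells the level was 342 CPM for barcodes ending in 1 and 557 CPM for those ending in 2, a log2 difference of 0.70 (0.63 to 0.78). The surface epithelium-like level stood above the erythroid-like one in both endings, at 87.0 and 68.3 CPM against 5.70 and 5.68.

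NR2F1 was at 201 CPM (194 to 209) in stroma-like and 164 CPM (128 to 208) in pericyte-like cells, and these intervals overlapped. Within each ending the pericyte-like value was the higher one, with a log2 ratio of stroma-like over pericyte-like cells of -0.39 (-1.52 to 1.06, from 6 pericyte-like UMIs) in ending 1 and -0.21 (-0.58 to 0.17) in ending 2. The order of these classes was thus not settled for NR2F1. Endothelial-like cells had 57.2 CPM (44.8 to 71.9), surface epithelium-like cells 34.9 (28.6 to 42.1) and granulosa-like cells 14.5 (12.8 to 16.4). NR2F1 went the other way from TCF21 between the endings of the stroma-like cells, with 306 CPM in ending 1 and 134 CPM in ending 2 (log2 difference -1.19, -1.30 to -1.09). In this comparison of the endings, NR2F1 and GATA2 were the members 2-fold or more lower in ending 2 among the 6 with at least 50 UMIs, and 7.43% of 10477 genes were that much lower. None of the 6 was 2-fold higher, where 4.1% of genes were.

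NR2F2 was at 833 CPM (749 to 924) in pericyte-like cells and 778 CPM (764 to 793) in stroma-like cells, with overlapping intervals. Endothelial-like cells came next, at 388 CPM (354 to 423), and 52.9% of them had an NR2F2 UMI, against 7.89% of erythroid-like cells. Endothelial-like cells of ending 1 had 504 CPM and those of ending 2 had 336 CPM, and both lay below the stroma-like cells of the same ending, at 716 and 819 CPM. Granulosa-like cells had 74.7 CPM (70.7 to 78.9) and surface epithelium-like cells 48.9 CPM (41.4 to 57.4), both above the 18.2 CPM of the erythroid-like cells, the lowest class. Germ cell-like cells had 34.3 CPM (30.6 to 38.3). Macrophage-like cells had 28.7 CPM (17.8 to 43.9), an interval that overlapped that of the surface epithelium-like cells.

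OSR1 was at 59.7 CPM (55.9 to 63.8) in stroma-like cells and at 18.5 CPM (16.5 to 20.6) in granulosa-like cells. MKX was at 38.8 CPM (35.7 to 42.1) and 16.8 CPM (14.9 to 18.8) in the same classes. For both genes pericyte-like cells had 16.4 CPM (6.60 to 33.8, from 7 UMIs each), an interval that overlapped that of the granulosa-like cells. In endothelial-like and surface epithelium-like cells neither gene exceeded 5.21 CPM. The endothelial-like level of each, 3.13 CPM (0.85 to 8.02), overlapped the erythroid-like one, 1.63 CPM (0.60 to 3.54). A UMI of OSR1 was seen in 17.7% of stroma-like cells and one of MKX in 11.4%, against 0.68% and 0.82% of erythroid-like cells. The stroma-like levels of both genes differed between the endings by less than 2-fold, with OSR1 at 46.9 and 68.0 CPM and MKX at 32.9 and 42.7 CPM in endings 1 and 2.

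GATA2 was at 72.1 CPM (58.1 to 88.4, from 92 UMIs) in endothelial-like cells and at 10.7 CPM (9.15 to 12.5) in stroma-like cells. The endothelial-like level was alike in the endings, at 71.6 and 72.3 CPM, while the stroma-like level was 16.5 CPM in ending 1 and 7.02 in ending 2. Endothelial markers summed to 5239.5 CPM in endothelial-like and 79.0 CPM in stroma-like cells. The part of endothelial RNA in the stroma-like GATA2 level was not tested. Germ cell-like cells had 8.46 CPM (6.69 to 10.6), which overlapped the stroma-like interval. Granulosa-like, surface epithelium-like and pericyte-like cells had 2.07, 1.63 and 2.35 CPM, the last from 1 UMI.

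GATA6 had 115 UMIs in all retained cells. The levels in granulosa-like cells (3.68 CPM, 2.83 to 4.70), surface epithelium-like cells (3.26, 1.56 to 5.99) and stroma-like cells (2.54, 1.79 to 3.48) overlapped each other. It had 0 UMIs in endothelial-like, pericyte-like and germ cell-like cells, where 3 UMIs would have been 2.35, 7.04 and 0.33 CPM. Of these limits, that of the germ cell-like cells lay more than 2-fold below the granulosa-like level.

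Set against granulosa-like cells, 6 of the 7 members were 2-fold or more higher in stroma-like cells, where 9.5% of 12140 genes with 50 or more UMIs in the pair were, and none was 2-fold lower, where 12.9% were. Of these members GATA2 passed the minimum only through the stroma-like cells, with 161 UMIs there and 36 in granulosa-like cells. The log2 ratio of the levels was 4.59 (4.43 to 4.75) for TCF21, 3.80 (3.61 to 3.99) for NR2F1, 3.38 (3.30 to 3.46) for NR2F2 and 2.38 (1.85 to 2.94) for GATA2. It was 1.69 (1.51 to 1.88) for OSR1, 1.21 (1.00 to 1.42) for MKX and -0.54 (-1.16 to 0.06) for GATA6. The median over the members was 2.38, which is the ratio of GATA2, and over all these genes it was -0.09.

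Against pericyte-like cells, 4 of the 6 members with 50 or more UMIs in the pair were 2-fold higher in stroma-like cells, and 12.8% of 10542 genes were. None was 2-fold lower, and 8.06% of genes were. The log2 ratio was 0.29 (-0.05 to 0.66) for NR2F1 and -0.10 (-0.25 to 0.06) for NR2F2, so neither was told apart between these classes. Those of OSR1, MKX and GATA2 rest on 7, 7 and 1 UMIs in pericyte-like cells. These 3 members passed the minimum only through the stroma-like cells and so had to differ, and the GATA2 ratio turned to -0.90 when cells were thinned to 1000 UMIs, with 0 pericyte-like UMIs set to 3. Nothing is read from the count of 4. Against endothelial-like cells, 5 of 6 members were 2-fold higher (13.9% of 10786 genes were), TCF21, OSR1 and MKX having passed only through the stroma-like cells, and GATA2 was lower, with a log2 ratio of -2.75 (-3.12 to -2.36), where 10.9% of genes were 2-fold lower. NR2F2 was at the edge of that fold, with a log2 ratio of 1.01 (0.88 to 1.14), and within ending 1 it was 0.51. Against surface epithelium-like cells the 6 members with 50 or more UMIs were 2-fold higher, and 10.7% of 11000 genes were, but OSR1, MKX and GATA2 passed only through the stroma-like cells. None was 2-fold lower, where 10.1% were.

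**Figure D2:**
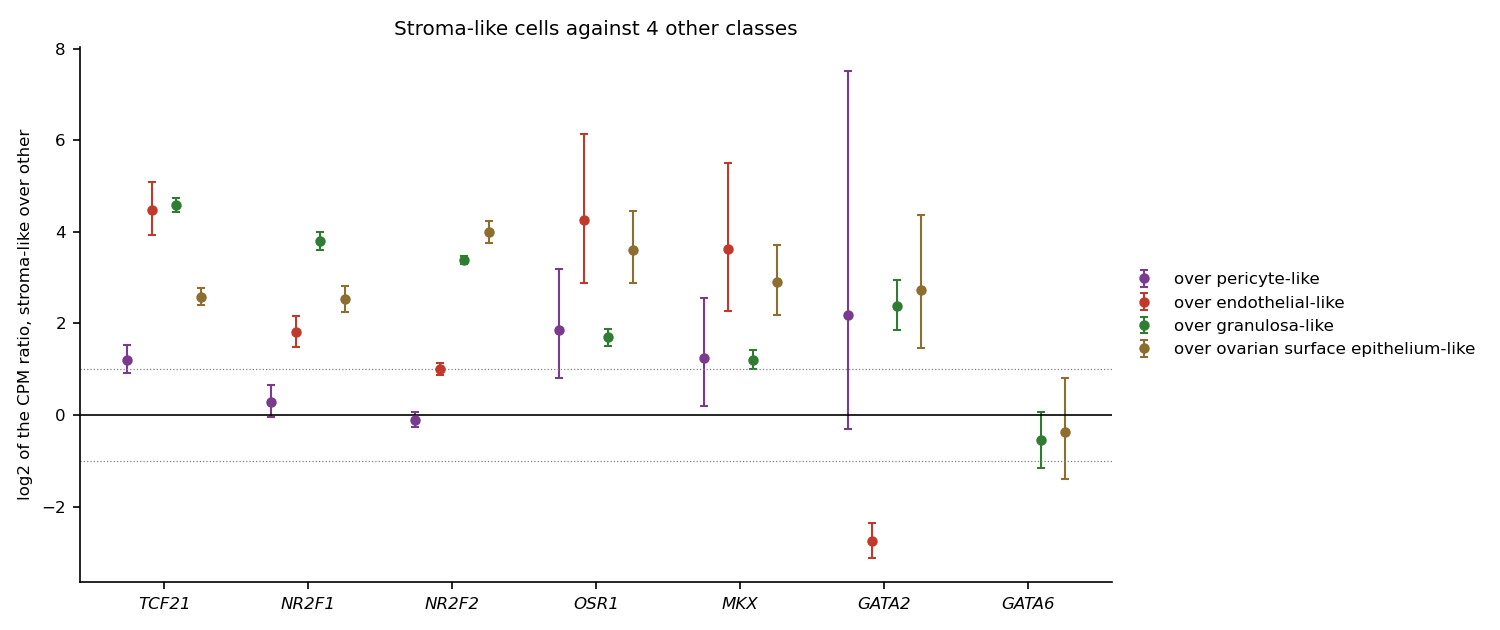
Log2 ratio of the level of each factor in stroma-like cells over 4 other classes, with exact conditional 95% intervals, both barcode endings together. Dotted lines mark a 2-fold difference, and pairs with 0 UMIs in either class are left out. NR2F1 and NR2F2 lie at the zero line only against pericyte-like cells, and GATA2 lies below it only against endothelial-like cells.

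UMIs of more than 1 factor could be seen in the same cell. After each cell was thinned to 1000 UMIs, so that depth was equal, 77.4% of stroma-like cells held a UMI of at least 1 factor and 32.8% held UMIs of 2 or more. The corresponding shares were 69.6% and 22.3% in pericyte-like cells, 42.9% and 6.23% in endothelial-like cells, 15.2% and 0.56% in surface epithelium-like cells and 13.1% and 0.92% in granulosa-like cells. In erythroid-like cells they were 4.50% and 0.16%. Thinning left out 236 stroma-like and 109 granulosa-like cells with fewer UMIs than that. At that depth NR2F2 was seen in 53.0% of stroma-like cells, TCF21 in 33.6%, NR2F1 in 18.4%, OSR1 in 5.63% and MKX in 3.88%. The shares in erythroid-like cells were 2.33%, 0.78%, 1.09%, 0.16% and 0.16%. The share of cells with 2 or more factors rises with the level of each factor alone. No share expected from the single factors was computed, so these shares do not show a tendency to occur together.

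In the thinned stroma-like cells, how often a factor was seen was also compared between cells with and without a UMI of another. Many pairs were compared, and in ending 1 the intervals lay apart for NR2F1 by MKX and for TCF21 and NR2F1. Read the other way, MKX was seen in 1.54% (0.62 to 3.14) of cells with an NR2F1 UMI in ending 1. It was seen in 3.98% (2.98 to 5.20) of those without, and these intervals overlapped. NR2F1 was seen in ending 1 in 12.1% (4.99 to 23.3) of cells with an MKX UMI and in 26.7% (24.6 to 28.9) of those without, but in ending 2 in 13.6% (7.25 to 22.6) and 11.6% (10.2 to 13.1). In ending 1 TCF21 was seen in 22.6% (18.8 to 26.7) of cells with an NR2F1 UMI and in 29.9% (27.4 to 32.5) of those without, and in ending 2 in 36.4% (30.3 to 42.9) and 38.6% (36.4 to 40.9). TCF21 was seen in 41.4% (28.6 to 55.1) of cells with an MKX UMI in ending 1 and in 27.5% (25.4 to 29.7) of those without. For ending 2 these shares were 46.6% (35.9 to 57.5) and 38.0% (35.8 to 40.2), and the intervals overlapped in both endings. OSR1 and MKX were seen together in 1 cell of ending 1 and in 5 of ending 2, out of 67 and 145 cells with OSR1. In both endings the share of cells with MKX was lower among cells with OSR1, 1.49% (0.04 to 8.04) against 3.41% and 3.45% (1.13 to 7.86) against 4.41%, within the intervals.

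The stroma-like class was made of 3 clusters. Cluster 0 (2123 cells, led by GBP1, IFIT2, SPON2, WFDC1 and C7) had 2 cells with barcodes ending in 1, and cluster 3 (1768 cells, led by POSTN, RSPO3, LUM and OGN) had 1742. Between them, barcode ending and cluster cannot be told apart. The third, cluster 16, held 109 cells led by proliferation genes such as UBE2C and MKI67, from both endings. Over these clusters NR2F1 and GATA2 were 2-fold apart, 2 of the 6 members with 50 or more UMIs, a share close to the 29.9% of 10477 genes that were. With GATA6, which was under that minimum and had 1 UMI in its lowest cluster, 3 of 7 were, and this count rose to 6 when clusters were cut more finely (resolution 1.0). The share over all genes is not given for that setting.

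The stroma-like cells of each ending were therefore also clustered alone, a step chosen after the data were seen. This gave 7 subgroups in ending 1 and 6 in ending 2. Between subgroups of at least 100 cells, 4 of the 6 members with 50 or more UMIs were 2-fold apart in ending 1, where 52.1% of 8557 genes were, and 5 of 6 in ending 2, where 36% of 9246 genes were. GATA6, under the minimum, is not in these counts. These subgroups are clusters of the same cells, so their levels are a description. NR2F2 varied the least in both endings, by 1.85-fold and 1.60-fold between its highest and lowest subgroup, and TCF21 varied by 1.95-fold and 2.18-fold. OSR1 varied by 5.08-fold (3.45 to 7.62) and 4.95-fold (2.93 to 8.93). In ending 2 MKX varied by 5.86-fold (3.55 to 10.3), and the subgroup with the most OSR1 had the least MKX.

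A subgroup led by MOXD1, PAMR1, MGP and SCARA5 in ending 1 (260 cells) and one led by MGP, PI16, ANXA1, MOXD1, LUM and PAMR1 in ending 2 (232 cells) shared 3 leading genes. MGP and LUM are matrix proteins, and PI16 marks fibroblasts of connective tissue. They had the highest OSR1 level of their ending, at 114 CPM (91.6 to 141) and 106 CPM (87.9 to 126). Their NR2F1 levels were 414 CPM (369 to 462) and 235 CPM (208 to 265), the second highest in ending 1 and the highest in ending 2. TCF21 was lowest in both among subgroups of at least 100 cells, at 205 CPM (174 to 240) and 339 CPM (307 to 375). MKX was low in both, at 9.20 CPM (3.70 to 19.0) and 14.6 CPM (8.51 to 23.4). Each also had the highest level of its ending of DLK1, a Notch-like factor of mesenchymal progenitors, at 895 and 1546 CPM, and of PRRX1, a homeobox factor of mesenchyme, at 179 and 84.2 CPM.

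High MKX levels stood with low OSR1 levels in ending 2. The subgroup led by SEMA3D, SPON2 and NPW (355 cells) had 85.6 CPM of MKX (73.0 to 99.8), with a UMI in 30.4% of its cells, and 30.3 CPM of OSR1 (23.0 to 39.2). It also had the highest TCF21 level, 740 CPM (702 to 780). The subgroup led by SPON2, FAT4 and EDN3 (425 cells) had 81.4 CPM of MKX (62.3 to 105) and 21.4 CPM of OSR1 (12.2 to 34.7), in cells with a median of 1390 UMIs and 17.2% mitochondrial UMIs. In ending 1 the highest MKX level, 64.7 CPM (47.5 to 86.0), was in the subgroup led by the smooth muscle genes ACTA2, MYH11, TAGLN and ACTG2 (184 cells), where OSR1 was at 50.9 CPM. Pericyte markers summed to 4053.4 CPM in it, against at most 918.9 in the other subgroups of ending 1 and 6798.8 in pericyte-like cells. These cells counted as stroma-like, while 8 cells of ending 1 were pericyte-like.

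Other subgroups of ending 2 had PTCH1, or INSL3 and HSD3B2, among their leading genes, which belong to the theca and Leydig lineage genes listed below. The one led by NR0B1, HOXD10, HOXD9 and PTCH1 (668 cells) had the highest NR2F2 level, 985 CPM (946 to 1026), with 92.4 CPM of OSR1 (80.7 to 105). NR0B1 was also among the leading genes of the largest subgroup of ending 1 (677 cells). The one led by PLA2G1B, INSL3 and HSD3B2 (458 cells) had 96.7 CPM of CYP17A1, an enzyme of androgen synthesis, and no other subgroup of either ending exceeded 4.11 CPM. In it TCF21 was at 541 CPM (512 to 570), NR2F2 at 806 (771 to 842), OSR1 at 73.3 (63.1 to 84.7) and MKX at 28.1 (22.0 to 35.5), each between the lowest and the highest of its ending. NR2F1 was at 107 CPM (94.6 to 121) there, the lowest among subgroups of at least 100 cells in ending 2, with an interval that overlapped the 109 CPM (87.1 to 136) of the subgroup led by SPON2, FAT4 and EDN3.

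GATA2 was concentrated in 1 small subgroup of ending 1, led by CHODL, RSPO3, RBM24 and INHBA (106 cells). It held 28 of the 97 GATA2 UMIs of the stroma-like cells of that ending, 110 CPM (72.9 to 158), and 21.7% of its cells had a GATA2 UMI. The other subgroups of at least 100 cells in that ending had between 8.26 and 17.0 CPM. The same subgroup had the highest NR2F1 level, 548 CPM (461 to 647), the lowest NR2F2 level among subgroups of at least 100 cells, 454 CPM (375 to 545), 1 MKX UMI, and the highest levels of OSR2 (219 CPM) and TBX3 (274 CPM). Endothelial markers summed to 54.8 CPM in it, with 7 of 11 at 0 UMIs, and to 77.1 and 79.0 CPM in the 2 most numerous subgroups of that ending. A subgroup of 42 cells in ending 1 met the marker rule for 8 granulosa markers and had 171 CPM of TCF21 and 346 CPM of NR2F2, the lowest of its ending. It was under the minimum of 100 cells and is not in the folds above.

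**Figure D3:**
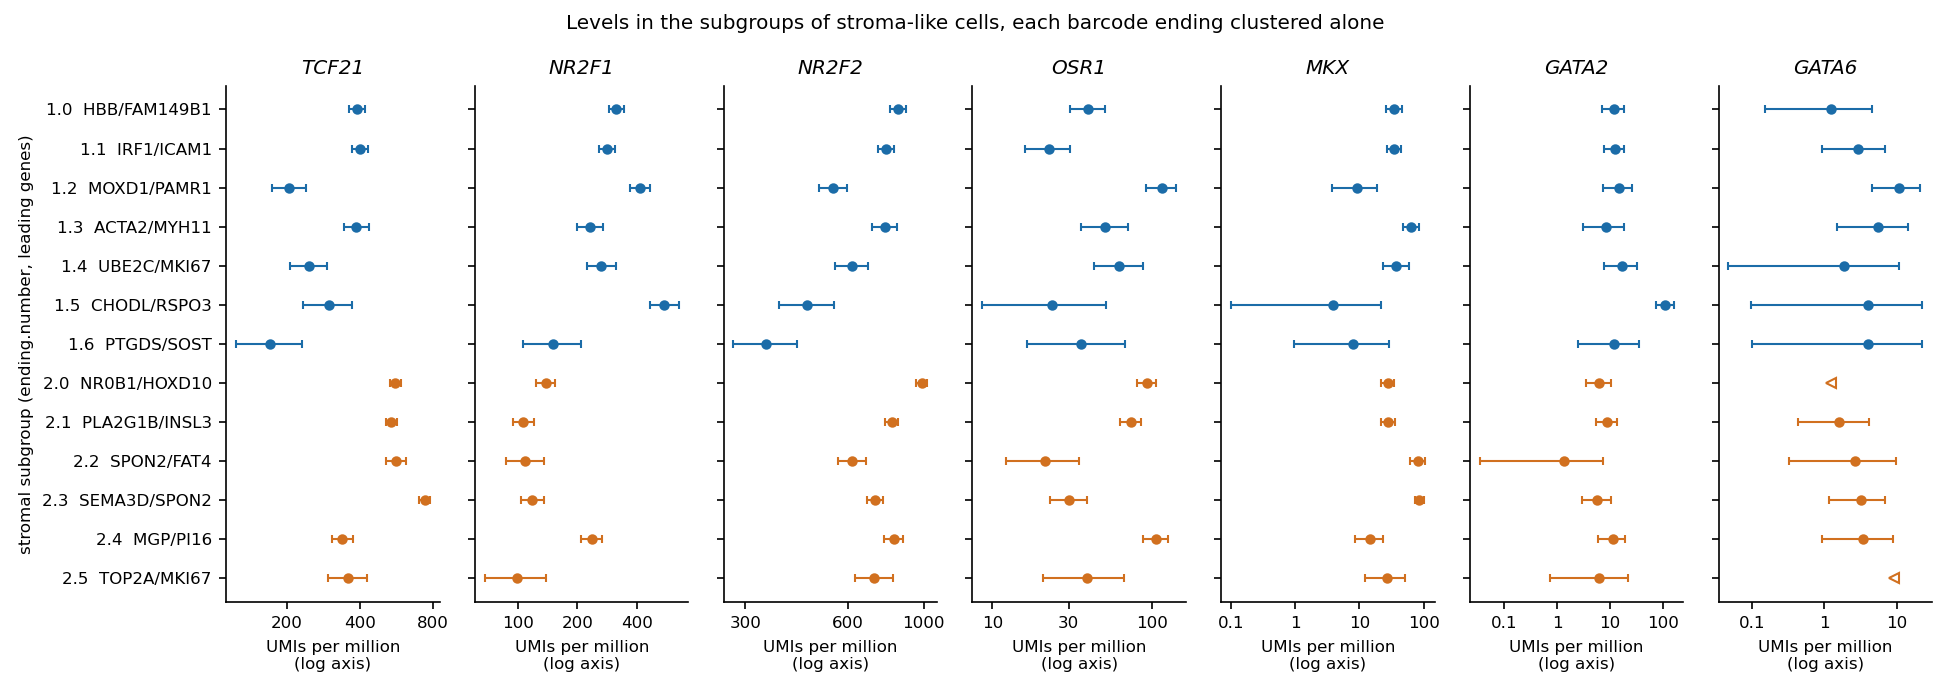
Level of each factor (CPM, log axes that differ between panels) in the subgroups of stroma-like cells, clustered apart for barcodes ending in 1 (blue, 1.0 to 1.6) and in 2 (orange, 2.0 to 2.5). Bars are exact 95% Poisson intervals, and open triangles mark 0 UMIs, drawn at the level of 3 UMIs. Subgroups 1.2 and 2.4 show high OSR1 with low MKX, 2.2 and 2.3 the reverse, and GATA2 stands apart in 1.5.

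In granulosa-like cells OSR1 and MKX were near the erythroid-like level in most cells of ending 1 and well above it in ending 2. OSR1 was at 1.75 CPM (0.96 to 2.94) in the 1740 cells of ending 1 of cluster 2, which was led by SOST, TOX3 and CRYM and had 32 other cells. The erythroid-like level of OSR1 was 0.36 CPM (0.01 to 1.98) in ending 1 and 5.68 CPM (1.84 to 13.3) in ending 2. It was at 31.9 CPM (27.5 to 36.8) in cluster 5, led by LYPD1, CBLN2 and RGS4, with 1071 of 1072 cells from ending 2. Cluster 5 held 188 of the 321 OSR1 UMIs and 149 of the 292 MKX UMIs of the class, while its name rested on 3 granulosa markers against 2 of pericytes, which summed to 1225.3 and 1084.2 CPM. It was at 19.1 CPM (13.4 to 26.3) in cluster 7, led by PLXNC1 and INHBB, with 981 of 983 cells from ending 2. Cluster 13, led by PCP4, AMH, CYP19A1 and INHA, had 56.3 CPM (44.7 to 69.9), an interval that held neither of the other clusters' values.

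MKX was at 2.13 CPM (1.24 to 3.41) in the same cells of cluster 2, 25.3 CPM (21.4 to 29.7) in cluster 5, 42.2 CPM (33.6 to 52.4) in cluster 7 and 29.9 CPM (21.6 to 40.2) in cluster 13. Cluster 7 had a median of 48.3% mitochondrial UMIs. Cluster 13 was the only granulosa-like cluster with more than 50 cells of both endings, 95 and 200. Within it OSR1 was present in both, at 79.2 CPM (48.3 to 122) and 51.4 CPM (39.3 to 66.0), whereas MKX had 0 UMIs in ending 1, where 3 UMIs would be 11.9 CPM, and 36.2 CPM (26.2 to 48.8) in ending 2. Over the whole class OSR1 was at 4.13 and 31.3 CPM and MKX at 2.06 and 30.0 CPM in endings 1 and 2. Within ending 2 the log2 ratio of stroma-like over granulosa-like cells was 1.12 (0.91 to 1.32) for OSR1 and 0.51 (0.28 to 0.73) for MKX, and within ending 1 it was 3.51 and 3.99. Without cells over 10% mitochondrial UMIs, which left 1066 granulosa-like cells, the ratios over both endings were 3.68 and 3.94. The median mitochondrial share of the granulosa-like clusters ran from 10.8% in cluster 2 to 48.3% in cluster 7, with 16.2% in cluster 5.

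The ratio to TCF21, whose RNA is abundant in the stroma, was also taken. In ending 2 there were 1.43 OSR1 UMIs (1.19 to 1.72) and 1.37 MKX UMIs (1.14 to 1.65) for each TCF21 UMI in granulosa-like cells, against 0.12 and 0.08 in stroma-like cells. The part of free RNA in these levels was not tested. NR2F2 was also uneven, at 234 CPM (210 to 261) in cluster 13 and between 48.5 and 76.6 CPM in the other granulosa-like clusters. Stroma markers summed to 3565.7 CPM in cluster 2, 2703.9 in cluster 13, 2305.3 in cluster 5 and 1549.7 in cluster 7. Their part in these levels was not tested. The 6 members with 50 or more UMIs were 2-fold apart between the granulosa-like clusters, where 51.7% of 10890 genes were.

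**Figure D4:**
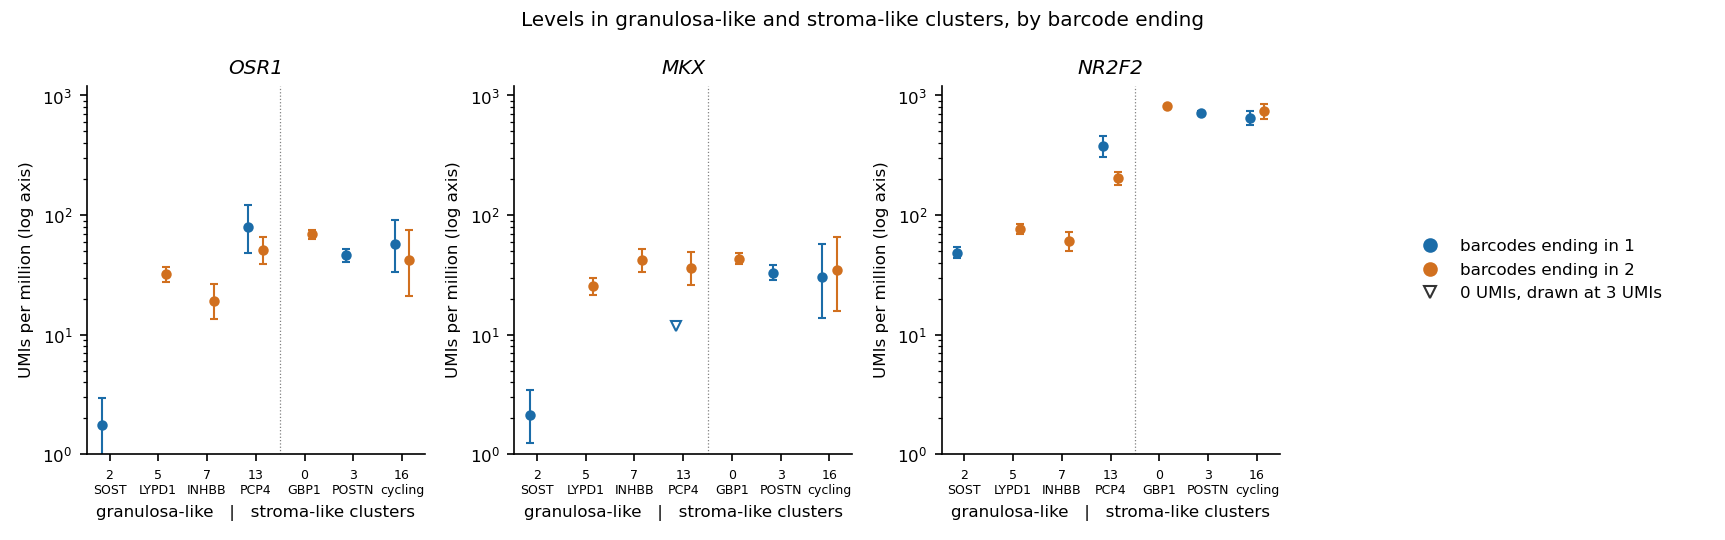
Levels of OSR1, MKX and NR2F2 (CPM, log axis) in the 4 granulosa-like and the 3 stroma-like clusters, by barcode ending, for clusters with at least 40 cells of an ending. Each cluster is marked by its number and a leading gene. OSR1 lies near 1.75 CPM in cluster 2 and between 19.1 and 79.2 CPM in the other granulosa-like clusters, and the open triangle marks 0 MKX UMIs in cluster 13 of ending 1.

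Cells with more than 3000 genes, 4675 of the table, were left out above. When the clustering was repeated with them, 582 of them were stroma-like and had 478 CPM of TCF21 (465 to 492), 49.7 of OSR1 (45.5 to 54.2) and 67.4 of MKX (62.5 to 72.7). A cluster led by CBLN2 and LYPD1, which met the marker rule for 4 pericyte and 3 granulosa markers and was left unnamed, held 358 of them, each with a barcode ending in 2. They had 49.1 CPM of OSR1 (44.1 to 54.6) and 67.2 CPM of MKX (61.4 to 73.5), with a MKX UMI in 59.5% of cells at a median of 17140 UMIs, and 18.2 CPM of TCF21 (15.2 to 21.7). A further 522 cells of ending 2, in an unnamed cluster led by MNDA and RGS4, had 24.3 CPM of MKX (21.3 to 27.5) and 4.87 CPM of OSR1 (3.59 to 6.46). The germ cell-like cells over the limit, 1308, had 12.6 CPM of GATA2 (11.3 to 13.9, from 377 UMIs) and 30.2 CPM of NR2F1 (28.2 to 32.2).

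Relatives of the factors were read from a list of 16 genes of the same families, of which 9 had 50 or more UMIs in stroma-like and granulosa-like cells together. Of these, 3 were 2-fold higher in stroma-like cells, 3 were lower and 3 were within 2-fold, with a median log2 ratio of -0.02. MSC, the bHLH factor closest to TCF21, was higher (log2 ratio 3.36, 3.06 to 3.67), and so was OSR2, the paralogue of OSR1 (4.42, 4.03 to 4.83). IRX3 and IRX5, Iroquois homeobox factors related to MKX, were lower (-4.04 and -4.57), as was GATA5 (-2.63). GATA4, the usual companion of GATA6, was within 2-fold at 2.14 CPM in stroma-like and 4.08 CPM in granulosa-like cells.

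Of 12 listed partners and cofactors 9 were counted, 1 of them 2-fold higher in stroma-like cells, 2 lower and 6 within. Over all genes of the pair 9.5% were higher and 12.9% lower. TCF4, an E protein that pairs with bHLH factors, was at 292 CPM in stroma-like, 804 in endothelial-like and 150 in granulosa-like cells. Of the 12, 7 were highest in endothelial-like cells, where 12.1% of all genes were. They included LMO2, which works with GATA2 in blood and endothelial cells, at 356 CPM, and ERG, an ETS factor of endothelium, at 162 CPM.

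Of 30 other mesenchymal and gonadal transcription factors 23 were counted, 12 of them 2-fold higher in stroma-like cells, 5 lower and 6 within, with a median log2 ratio of 1.01. The shares over all genes were again 9.5% higher and 12.9% lower. This contrast is with granulosa-like cells alone. Of 25 genes of the list compared over the 8 named classes, 4 were highest in stroma-like cells, where 8.92% of all genes were. Pericyte-like and surface epithelium-like cells had 7 each, where 11.7% and 10.4% of all genes were highest. GLI1, a target and effector of Hedgehog signalling, had a log2 ratio of 5.61 (4.72 to 6.69). MEIS1, a homeobox factor of mesoderm, had 2.19 (2.02 to 2.35). EMX2, WT1 and FOXL2, factors of the early gonadal epithelium and of granulosa cells, were lower, at -3.13, -1.75 and -2.37. Of 12 theca and Leydig lineage genes 9 were in the table and all 9 were counted, 8 higher and 1 lower, beside the same shares. The lists were chosen with earlier results of these data known, so their counts are descriptions. PDGFRA, a growth factor receptor of mesenchyme, had 5.39 (4.90 to 5.92), CYP17A1 had 4.05 (3.38 to 4.80), and INHA, an inhibin subunit, had -2.19 (-2.48 to -1.92).

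**Figure D5:**
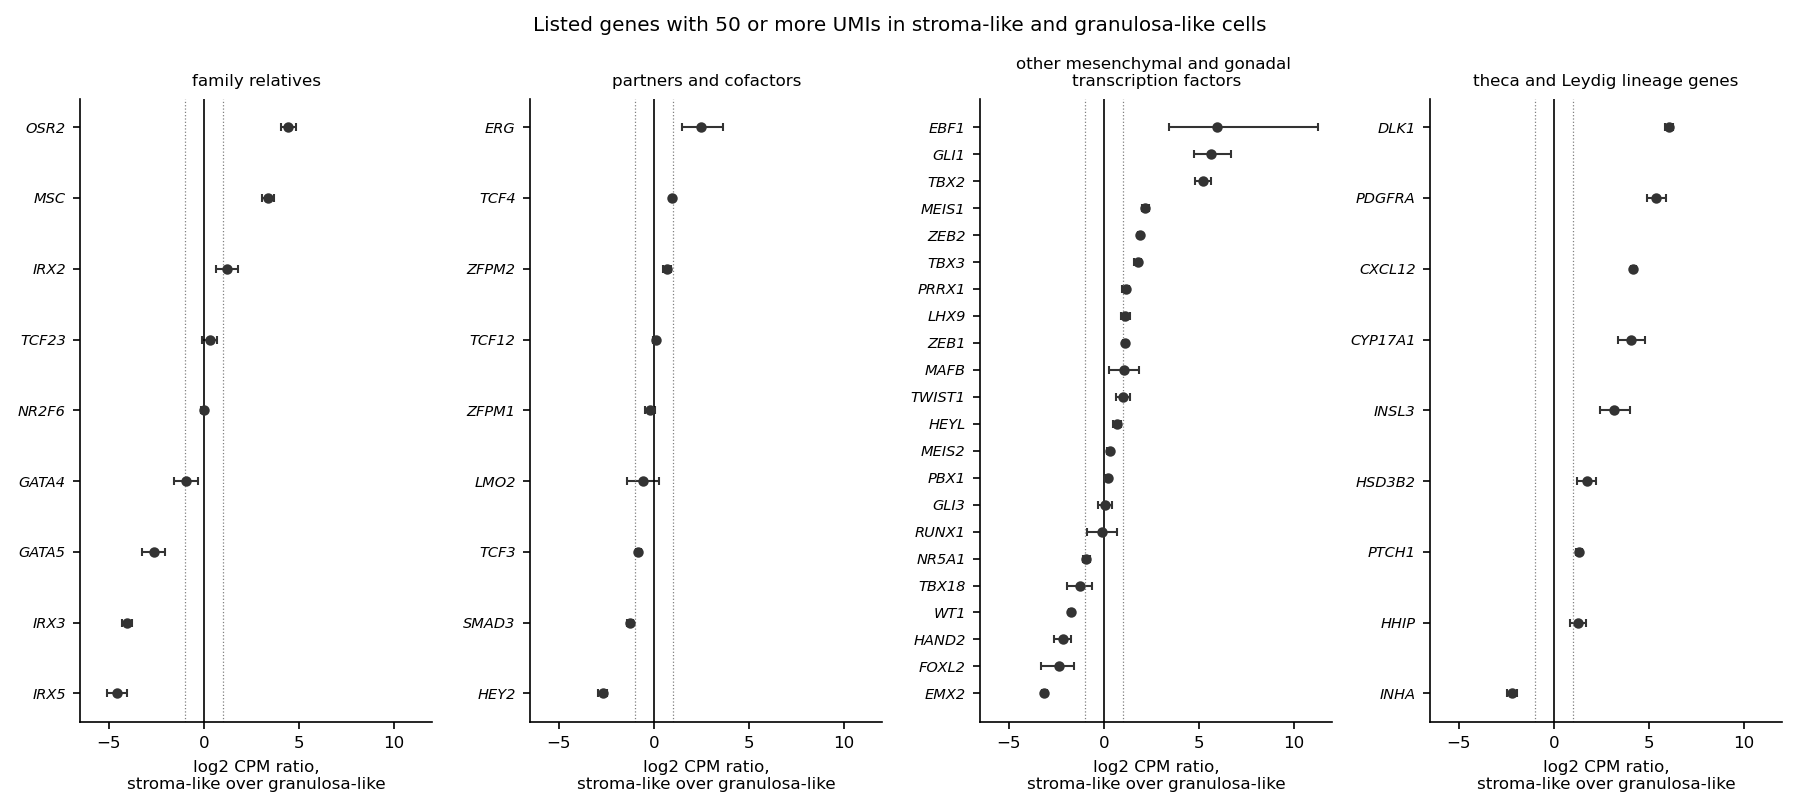
Log2 ratio of the level in stroma-like over granulosa-like cells for the listed genes with 50 or more UMIs in the pair, 1 panel per list, with exact conditional 95% intervals. In the third panel 1 counted gene is not drawn. Dotted lines mark a 2-fold difference. In the theca and Leydig list 8 of 9 genes lie above it, and in the family list 3 of 9 lie above and 3 below. Over all genes of the pair 9.5% were 2-fold higher and 12.9% lower.

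Over the 19 clusters, Pearson's r of log2(CPM + 10) placed COL1A2 (0.97), FXYD1 (0.97) and LTBP4 (0.96) nearest to TCF21 among 6273 genes, and ZCCHC24 (0.97), FADS2 (0.95) and FBLIM1 (0.95) nearest to NR2F2. PLAC9 and OGN (both 0.93) were near NR2F1, after an unnamed gene, and FXYD6 (0.91), DKK3 (0.90) and FMOD (0.90) near OSR1. The gene nearest to MKX was OSR1 itself (0.93), and those nearest to GATA2 were the endothelial genes RAMP2 (0.92), EGFL7 (0.88) and CLEC3B (0.87). MKX, at most 43.2 CPM in a cluster, and GATA2, with 382 UMIs, did not meet the minimum set for the compared genes. TCF21 and NR2F1 were at 0.89, and GATA2 was at 0.44 or less with every other member. Clusters share libraries and differ in depth, so these values only describe the 19 points. GATA6, with 115 UMIs, was too sparse to be read this way.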

How the data were processed

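The authors aligned the reads to Macaca_fascicularis_5.0, made raw UMI counts per gene and cell (Cell Ranger 3.0.2) and deposited 1 table of both libraries, which holds 148824177 UMIs. No removal of doublets or free RNA is stated in the sources used here. Of the barcodes, 27 occurred with both endings, 12 of them retained. Retained cells were clustered in Seurat 5.3.0 (R 4.3.3) on 18 principal components of 1972 variable genes with 20 neighbours and resolution 0.6. The 2000 most variable genes were taken and the members and listed genes removed from them. A cluster was named when at least 3 markers of a class were 1.5-fold over the other cells and seen in 5% of its cells. It stayed unnamed in a tie, where another class had more markers among its 10 leading genes, or where it was shallow with no marker leading. These names are rebuilt and can differ from those of the authors, and values with them. Doublets were kept, since Scrublet (scanpy 1.11.5) called 2 and 1 cells, and an alternative removed its top-scored 8%.

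Counts were summed per group. Intervals of levels were exact Poisson, of ratios exact conditional binomial and of shares exact binomial (scipy 1.17.1), and in ratios a count of 0 was set to 3. Ratio counts used genes with 50 or more UMIs in the pair, and likeness used genes with 500 or more UMIs and 50 CPM in a cluster. Named were every member, at most 6 genes a list that were highest in stroma-like cells or 2-fold apart from granulosa-like cells, and the 3 nearest genes per member. LMO2, TCF4, GATA4, OSR2, TBX3, PRRX1 and DLK1 values in other classes or in subgroups were chosen after they were seen. Listed STAR, CYP11A1 and LHCGR were not analysed here. For 1 other listed gene, kept in the counts, the value is not reported here. The members and lists were chosen with earlier results of these data known. Alternatives changed the cell filters, resolution, components, variable genes, integration, averaging, depth, barcode ending and doublets. The calculations were tested on simulated data.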

Additional observations from a re-analysis of the deposited data

How the results depend on the processing

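No paired analysis was possible because the fetuses share no pairing and no test was made. The number of factors highest in stroma-like cells was 4, and stayed within 1.5 times of that under 11 of 12 alternatives. It was 2 with barcodes ending in 1 alone, where 8 pericyte-like cells remained. With only barcodes ending in 2, NR2F1 was highest in pericyte-like cells, so 4 was not reached there either. The median log2 ratio of stroma-like over granulosa-like cells was 2.38, the ratio of GATA2. It was 3.53 without cells over 10% mitochondrial UMIs, 3.61 with only barcodes ending in 1 and 1.68 with only those ending in 2. The number of factors 2-fold apart between stroma-like clusters was 3, GATA6 with 1 UMI in its lowest cluster among them, where 29.9% of genes were. It became 6 without cells over 10% mitochondrial UMIs and at resolution 1.0, and 5 with 30 principal components and with reciprocal PCA integration. The share over all genes is not given for these settings. With the stroma-like cells of each ending clustered alone, chosen after the data were seen, the number was 5 in ending 1 and 6 in ending 2. The shares of all genes were 52.1% and 36%. Both counts include GATA6, left out of those in the Results. It had 8 and 2 UMIs in its highest and lowest subgroup in ending 1, and 4 and 0 in ending 2. The number could not be computed for 1 ending of the joint clusters, which left 1 stroma-like cluster of 100 cells. Of 312 ratios of single factors under the alternatives, 248 lay within the counting interval of the value reported, 60 moved out of it and 4, from a ratio of at least 2-fold, changed sign. All 4 were against pericyte-like cells: OSR1 (-0.51), MKX (-2.61) and GATA2 (-3.60) with only barcodes ending in 1, and GATA2 (-0.90) after thinning. In 3 of them the pericyte-like count was 0 and was set to 3, and for OSR1 it was 1. Ratios under 2-fold also changed sign for NR2F1 over pericyte-like cells (0.29 to -0.39 and -0.21 with only barcodes ending in 1 and in 2) and GATA6 over surface epithelium-like cells (-0.36 to 0.12 with only those ending in 1), so that 21 of 26 ratios kept their sign throughout. Over granulosa-like cells the MKX ratio ranged from 0.51 to 3.99, with only barcodes ending in 2 and in 1, and that of OSR1 from 1.12, with only those ending in 2, to 3.68, without cells over 10% mitochondrial UMIs. With 1 fetus per stage, no spread between animals is known.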

Other observations

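In the 4080 germ cell-like cells, for each TCF21 UMI there were 2.49 NR2F1 UMIs (1.84 to 3.41) in ending 1 and 2.06 (1.47 to 2.91) in ending 2, against 0.89 and 0.24 in stroma-like cells. For GATA2 the values were 0.82 (0.55 to 1.21) and 0.53 (0.32 to 0.85), against 0.05 and 0.01. The share of germ cell-like cells with a UMI was 5.61% for NR2F1 and 1.74% for GATA2 at a median of 1453 UMIs, against 2.59% and 0.41% of erythroid-like cells. GATA2 acts in blood cells, so its erythroid-like share can hold RNA of these cells beside free RNA. The part of free RNA in the germ cell-like levels was not tested.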
